A study of Homo sapiens with 20 samples.

Results

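Ribosome biogenesis and nucleolar genes were followed through a graded induction of p53 in B5/589, a line of immortalized mammary epithelial cells from a human that carries an inducible p53 transgene. A list of 37 genes was looked up by symbol in the probe annotation of the array. Of these, 35 had a transcript cluster (the probes of 1 transcription unit) with a single gene symbol, and where a gene had several such clusters the brightest was taken. NOP56 had only a cluster shared by 2 symbols and GNL3 had no entry, so both were left out. The 35 genes are set among 18417 genes with a named cluster, out of 33297 clusters on the array.

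Total RNA was labelled with biotin and hybridised to 20 Affymetrix arrays, with 1 sample on each. The 5 groups, of 4 arrays each, received no doxycycline (0 ng, with cells collected at 24 h), either 3 ng or 5 ng with collection at 12 h, or either dose with collection at 24 h. Every group, 0 ng included, consists of cells with the transgene, and the labels give no volume for the doses and no uninduced cells at 12 h. The cells are 1 line, and no source used here says whether the transgenic cells were 1 clone or whether each array had a culture of its own. The p-values therefore set each difference against the spread among these arrays, which may be technical, and the number of arrays limits their precision. They do not show how other cultures or clones would vary.

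Ribosomes are built in the nucleolus. RNA polymerase I transcribes a long precursor rRNA there, small nucleolar ribonucleoproteins (snoRNPs) guide its chemical modification, and large sets of assembly factors fold and cut it into the RNAs of the small and large ribosomal subunits. Growing and dividing cells use this pathway heavily, MYC is a known activator of many of its genes, and p53 is stabilised when the pathway is disturbed, since free ribosomal proteins then bind MDM2.

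The promoters that the array data bear on are shown first. They are the 250 bases before the annotated gene start, read 5′ to 3′ on the strand of the gene, from RefSeq on GRCh38.p14. Capitals mark CACGTG, the E-box that MYC with MAX can bind, and CGGAAG or CTTCCG on the other strand, the core that ETS factors can bind. DKC1 and UTP20 are shown because they fell most among the genes with an entry in the promoter table, UTP18 because it holds both motifs and fell, NOP10 because it holds 2 E-boxes and fell least among those that fell at 5 ng, and POLR1A and POLR1C because they passed the test at neither dose as deposited. The windows are chrX:154762614-154762863 (plus strand) for DKC1, chr12:101279855-101280104 (plus) for UTP20, chr17:51260296-51260545 (plus) for UTP18, chr15:34343137-34343386 (minus) for NOP10, chr2:86105887-86106136 (minus) for POLR1A and chr6:43516839-43517088 (plus) for POLR1C.
DKC1: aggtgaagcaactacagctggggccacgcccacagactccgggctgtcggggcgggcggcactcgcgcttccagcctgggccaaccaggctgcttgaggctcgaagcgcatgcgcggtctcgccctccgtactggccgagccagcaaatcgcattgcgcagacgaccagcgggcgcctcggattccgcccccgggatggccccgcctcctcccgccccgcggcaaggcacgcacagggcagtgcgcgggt
UTP20: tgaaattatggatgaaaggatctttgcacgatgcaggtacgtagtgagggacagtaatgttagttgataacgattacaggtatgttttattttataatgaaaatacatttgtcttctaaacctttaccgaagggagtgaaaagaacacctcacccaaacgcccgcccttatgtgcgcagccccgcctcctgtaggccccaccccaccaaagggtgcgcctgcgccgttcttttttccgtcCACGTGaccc
UTP18: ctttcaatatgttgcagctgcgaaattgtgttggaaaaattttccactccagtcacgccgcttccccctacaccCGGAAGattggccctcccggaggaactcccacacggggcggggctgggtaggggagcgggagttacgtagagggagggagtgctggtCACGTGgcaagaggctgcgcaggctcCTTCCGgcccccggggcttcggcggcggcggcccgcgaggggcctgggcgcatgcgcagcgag
NOP10: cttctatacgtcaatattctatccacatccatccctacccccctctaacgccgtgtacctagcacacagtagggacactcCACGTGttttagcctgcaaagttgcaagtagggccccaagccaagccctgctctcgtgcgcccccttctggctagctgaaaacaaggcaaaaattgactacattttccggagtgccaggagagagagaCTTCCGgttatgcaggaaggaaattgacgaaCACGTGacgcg
POLR1A: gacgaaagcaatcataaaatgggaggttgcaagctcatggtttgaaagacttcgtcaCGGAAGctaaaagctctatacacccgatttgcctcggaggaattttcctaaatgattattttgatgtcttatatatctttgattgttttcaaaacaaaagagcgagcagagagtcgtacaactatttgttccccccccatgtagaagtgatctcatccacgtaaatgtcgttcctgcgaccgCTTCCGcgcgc
POLR1C: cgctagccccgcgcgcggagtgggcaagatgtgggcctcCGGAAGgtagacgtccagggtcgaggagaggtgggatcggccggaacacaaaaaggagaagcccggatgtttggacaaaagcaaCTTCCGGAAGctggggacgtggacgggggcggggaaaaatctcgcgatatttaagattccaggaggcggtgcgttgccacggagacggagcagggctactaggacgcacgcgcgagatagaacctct

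The DKC1 window holds neither motif. The E-box of UTP20 begins 10 bases before the start and that of UTP18 89 bases before it, while those of NOP10 begin 170 and 11 bases before it. In POLR1C the match that begins 127 bases before the start overlaps the one that begins 123 bases before it, on the other strand. The promoter table held 33 windows of 29 of the 35 genes. Some of these windows lie within the annotated span of the gene, among them those of PES1 and BYSL and the DDX21 window with an E-box. The DDX21 window before the gene start held no E-box. The E-box was present in 5 of the 33 windows (15.2%), those of DDX21, NAT10, NOP10, UTP18 and UTP20, against 6.34% of all 35116 promoters of the same length. The ETS core was present in 17 of the 33 windows (51.5%), which belong to 15 genes, against 16.5% of all promoters, searched on both strands. These matches are letters in a window and do not show binding.

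The array values are deposited on the log2 scale, so a difference of 1 is a doubling. Array brightness varied as deposited, with array medians from 4.54 to 5.54, and every comparison is therefore given on the deposited values and, where it matters, after quantile normalization, which gives all arrays the same distribution of values. Genes are called at a Benjamini-Hochberg adjusted p under 0.05 over all 18417 genes, from limma fitted to all 20 arrays. Of 8 markers of mammary epithelium, 6 had a named cluster, and their means over all arrays lay between the 95.1st and 99.9th percentiles of genes. Markers of fibroblasts, leukocytes and endothelium lay at or below the 56.2nd percentile. CDKN1A, the p21 inhibitor that p53 induces, rose by 0.72 ± 0.14 at 3 ng and by 1.44 ± 0.14 at 5 ng against 0 ng at 24 h (limma adjusted p = 0.00095 and 1e-07, SE, n = 4 arrays a group).

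The ribosome biogenesis genes gave bright signals, with means over all arrays from 7.25 to 11.5, or the 70.0th to 99.3rd percentile of genes. Probe brightness differs between genes, so these signals do not rank their transcripts. Averaged over the 35 genes, the level was 9.28 ± 0.23 at 0 ng, 8.87 ± 0.35 at 3 ng and 8.81 ± 0.18 at 5 ng after 12 h, and 8.53 ± 0.11 at 3 ng and 8.43 ± 0.11 at 5 ng after 24 h (SD, n = 4). The deposited values of 3 ng at 12 h spread widely and overlapped those of 0 ng. After quantile normalization the same means were 9.03 ± 0.04, 8.84 ± 0.05, 8.80 ± 0.05, 8.73 ± 0.03 and 8.54 ± 0.05. On that scale the 4 arrays of 5 ng at 24 h lay between 8.48 and 8.60, below all other arrays, and those of 0 ng between 8.98 and 9.07, above all others. In deposited group means, 34 of the 35 genes were highest at 0 ng, and 27 were lowest at 5 ng for 24 h and 7 at 3 ng for 24 h. In quantile-normalized group means, 27 were highest at 0 ng. On that scale 30 were lowest at 5 ng for 24 h, 3 at 5 ng for 12 h, 2 at 0 ng and 0 at 3 ng for 24 h.

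**Figure D1:**
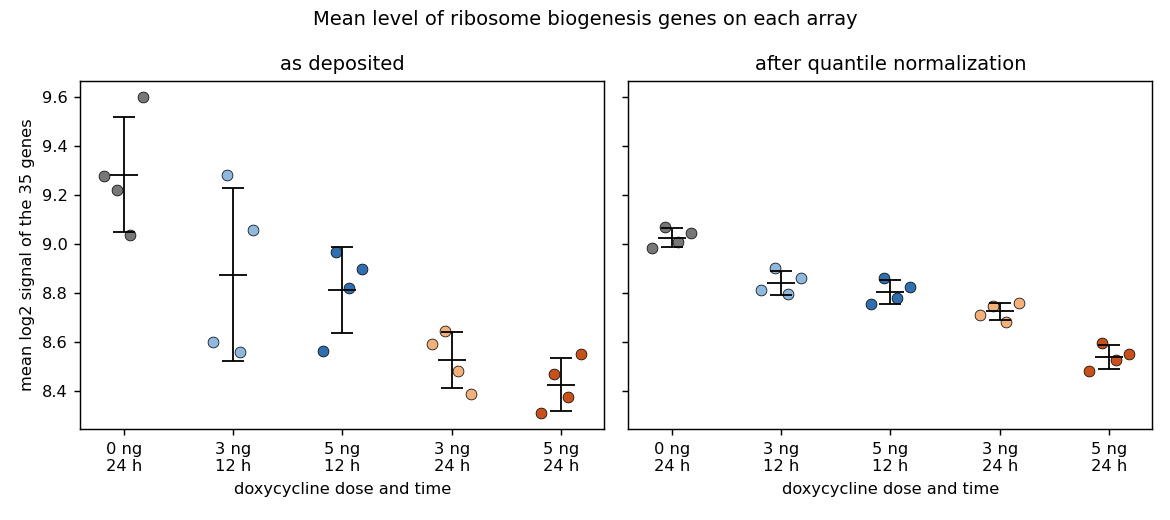
Mean log2 signal of the 35 ribosome biogenesis genes on each array (vertical axis) in the 5 groups of doxycycline dose and time, as deposited on the left and after quantile normalization on the right. Points are arrays, and bars are the mean ± SD of 4 arrays. The quantile-normalized means of 5 ng at 24 h lie between 8.48 and 8.60, and those of 0 ng between 8.98 and 9.07.

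Both doses were compared with 0 ng at 24 h to ask what induced p53 did to the pathway after a day. At 3 ng, 33 of the 35 genes fell and 0 rose, against 23% of all genes called lower and 1.5% called higher, and the median log2 change was -0.76, against -0.23 over all genes. At 5 ng, 32 fell and 0 rose, against 23.5% and 4.52% of all genes, with a median of -0.86 against -0.24. In 33 genes all 4 arrays of 3 ng lay below all arrays of 0 ng, and in 33 genes all arrays of 5 ng did, against 27.9% and 27% of all genes. The deposited median of all genes was itself below 0. After quantile normalization, where it was 0.08 at 3 ng and 0.07 at 5 ng, 25 genes fell and 1 rose at 3 ng (12.5% and 15.4% of all genes were called lower and higher), and 29 fell and 2 rose at 5 ng (17.2% and 20.6%). Every gene called lower after quantile normalization was also called lower as deposited, 25 of 25 and 29 of 29. The 2 comparisons share the 4 arrays of 0 ng. In bulk RNA, fewer cells of a kind and less RNA per cell cannot be told apart, and all 4 markers of proliferation measured (MKI67, TOP2A, CDK1 and CCNB1) fell in both comparisons, with medians of -2.73 at 3 ng and -3.96 at 5 ng. Their part in the lower levels of ribosome biogenesis genes was not tested.

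**Figure D2:**
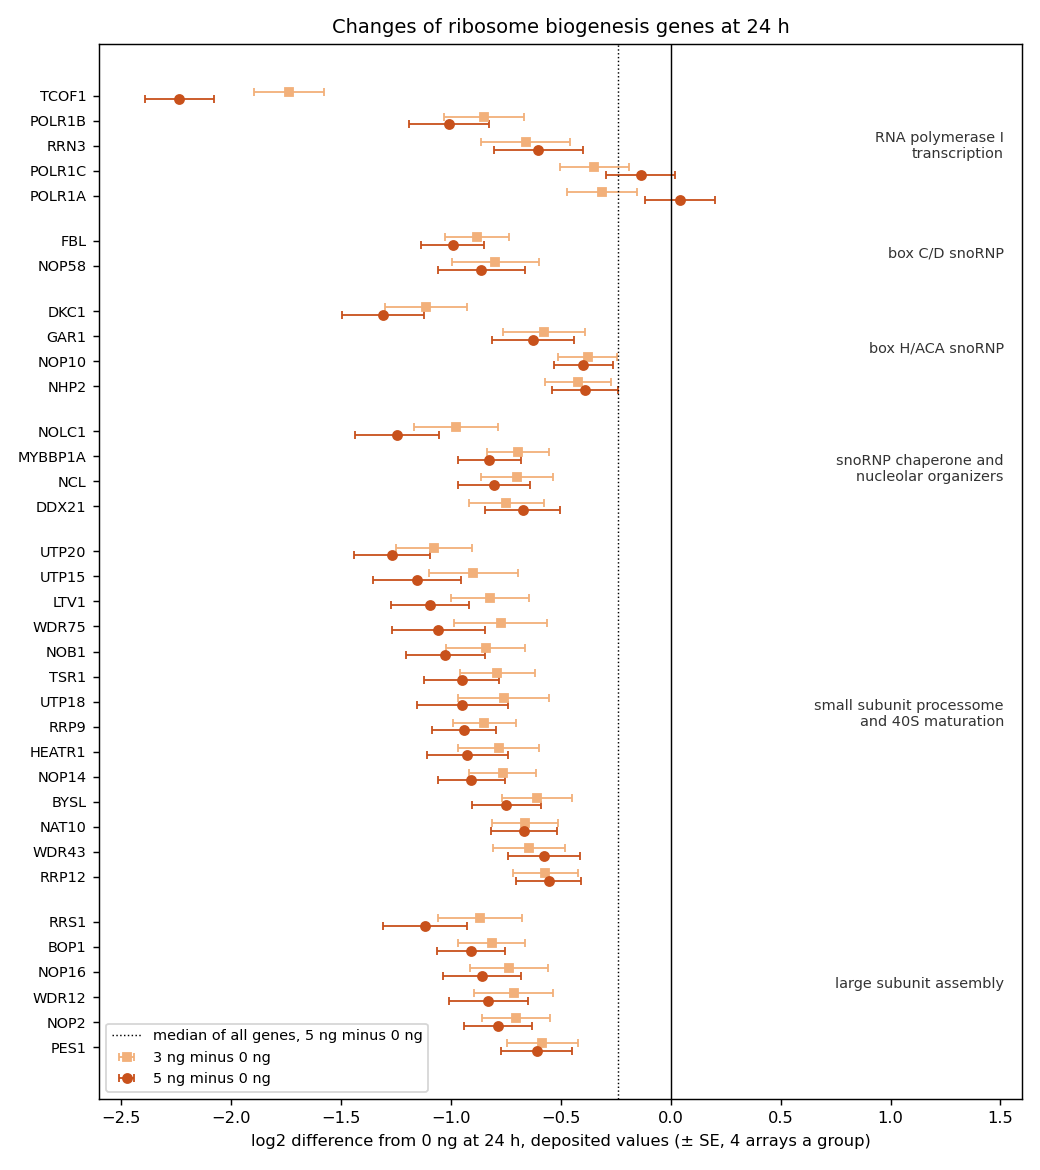
Log2 difference from 0 ng at 24 h (horizontal axis, deposited values) of the 35 genes, grouped by role, for 3 ng (squares) and 5 ng (circles), with the SE of the model and 4 arrays a group. The dotted line is the median of all genes at 5 ng, -0.24. TCOF1 lies farthest to the left at both doses, and POLR1A and POLR1C lie closest to 0 at 5 ng.

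Among genes of RNA polymerase I transcription, changes ran from the steepest to the smallest of all 35. TCOF1 encodes treacle, a nucleolar protein that couples transcription by the polymerase to rRNA processing and is mutated in Treacher Collins syndrome. TCOF1 read 8.80, 8.81, 8.73 and 9.21 at 0 ng, 7.18, 7.30, 7.07 and 7.06 at 3 ng, and 6.64, 6.57, 6.67 and 6.73 at 5 ng, all at 24 h. The 3 groups did not overlap, and the level was lower at each dose step. TCOF1 fell by 1.74 ± 0.16 at 3 ng (3.33-fold lower, limma adjusted p = 9.3e-08) and by 2.24 ± 0.16 at 5 ng (4.71-fold lower, adjusted p = 6e-10). Quantile normalization left falls of 1.28 and 1.81.

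POLR1B, one of the large catalytic subunits, fell by 0.85 ± 0.18 at 3 ng and by 1.01 ± 0.18 at 5 ng (limma adjusted p = 0.0018 and 0.00022). RRN3, the factor that brings the polymerase to the rDNA promoter, fell by 0.66 ± 0.20 and 0.60 ± 0.20 (limma adjusted p = 0.021 and 0.029), but after quantile normalization its changes of -0.19 and -0.22 did not pass, and other clusters of this array carry RRN3 together with its pseudogenes. POLR1A, the largest catalytic subunit, read 8.50, 8.31, 8.16 and 8.83 at 0 ng, 8.28, 8.23, 8.13 and 7.91 at 3 ng, and 8.44, 8.48, 8.43 and 8.62 at 5 ng. Its 5 ng arrays lay inside the range of 0 ng and above all 4 arrays of 3 ng. POLR1C, a subunit shared by polymerases I and III, read 9.11, 9.11, 8.90 and 9.42 at 0 ng, 8.92, 8.84, 8.76 and 8.63 at 3 ng, and 8.96, 9.06, 8.93 and 9.04 at 5 ng. Its 5 ng arrays likewise lay within the range of 0 ng.

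Neither POLR1A nor POLR1C passed as deposited. The differences for POLR1A were -0.31 ± 0.16 at 3 ng and 0.04 ± 0.16 at 5 ng (limma adjusted p = 0.18 and 0.88), and for POLR1C -0.35 ± 0.16 and -0.14 ± 0.16 (0.12 and 0.58). After quantile normalization POLR1A rose by 0.17 at 3 ng and by 0.43 at 5 ng (limma adjusted p = 0.024 and 3.2e-06), and POLR1C changed by 0.11 at 3 ng (adjusted p = 0.12, not called) and rose by 0.22 at 5 ng (adjusted p = 0.0022). The sign thus changed with the scaling for POLR1A at 3 ng and for POLR1C at both doses. For POLR1A at 5 ng it was positive on all 3 scales, and the gene also passed when each array was centred on its median (0.35, limma adjusted p = 0.013).

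**Figure D3:**
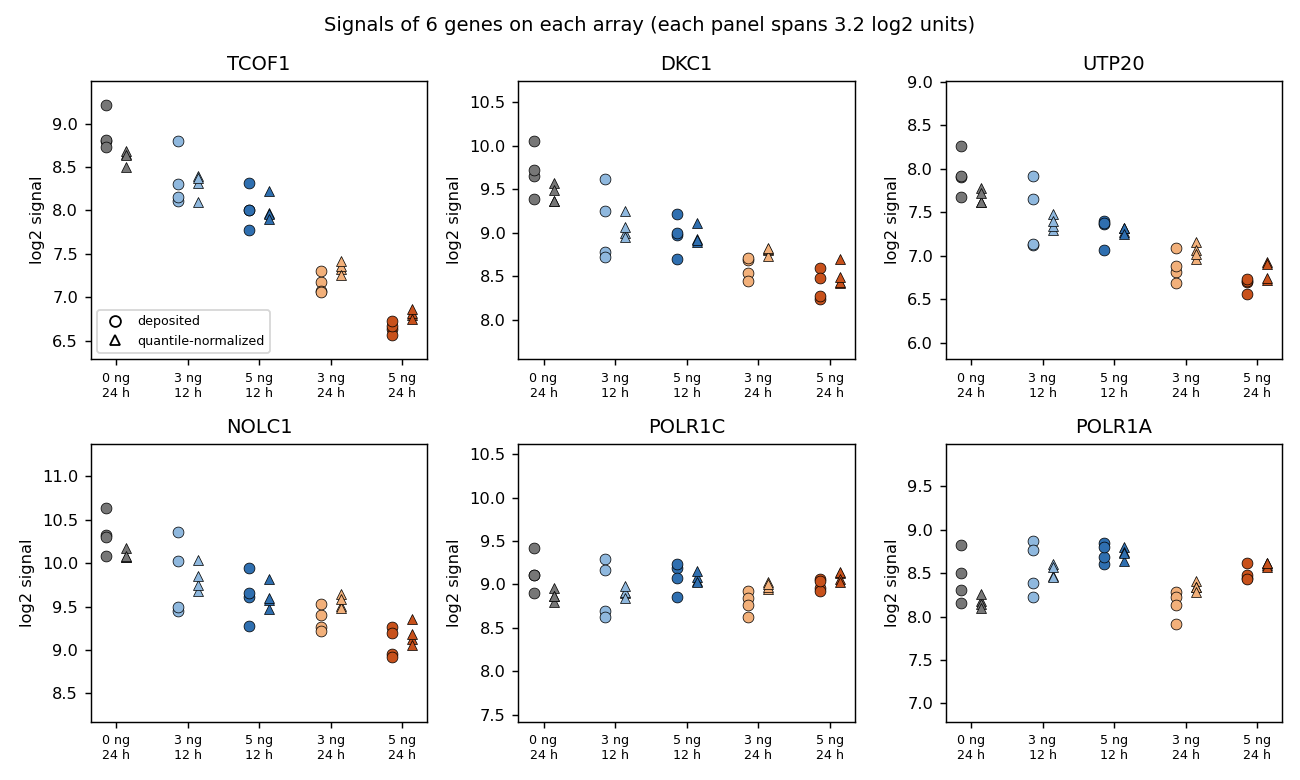
Log2 signal (vertical axis) of TCOF1, DKC1, UTP20, NOLC1, POLR1C and POLR1A on each array in the 5 groups, as deposited (circles) and after quantile normalization (triangles), with the same height of axis in each panel. TCOF1 shows separate levels for 0, 3 and 5 ng at 24 h, while the 5 ng arrays of POLR1C and POLR1A at 24 h lie within the deposited range of 0 ng.

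A difference within an array does not depend on a shift of the whole array. Measured against the mean of the other 34 genes on the same array, POLR1A stood at -0.86 ± 0.07 at 0 ng, -0.32 ± 0.09 and -0.08 ± 0.08 at 3 and 5 ng after 12 h, and -0.40 ± 0.08 and 0.07 ± 0.05 at 3 and 5 ng after 24 h (log2, SD, n = 4). POLR1C stood at -0.15 ± 0.03, 0.07 ± 0.05, 0.28 ± 0.05, 0.27 ± 0.06 and 0.59 ± 0.07 in the same order, and TCOF1 at -0.41 ± 0.07, -0.55 ± 0.15, -0.81 ± 0.11, -1.42 ± 0.04 and -1.83 ± 0.11. Only the shift between groups can be read, since probes differ in brightness. Against the rest of the pathway POLR1A and POLR1C were higher in every induced group than at 0 ng, and TCOF1 was lower in mean. These 3 genes were chosen for this measure after their values were seen, so no test is given.

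Among box C/D snoRNP genes, which guide methylation of rRNA, both measured members fell. FBL, the methyltransferase fibrillarin, read 10.51, 10.52, 10.38 and 10.77 at 0 ng, 9.75, 9.81, 9.61 and 9.48 at 3 ng, and 9.43, 9.66, 9.52 and 9.60 at 5 ng. All induced arrays at 24 h lay below all arrays of 0 ng. FBL fell by 0.88 ± 0.14 at 3 ng and by 0.99 ± 0.14 at 5 ng (limma adjusted p = 0.00015 and 2.2e-05), and NOP58, a core protein of the particle, by 0.80 ± 0.20 and 0.86 ± 0.20 (0.0056 and 0.0022).

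The 4 genes of box H/ACA snoRNPs, which turn uridines of rRNA into pseudouridine, did not move alike. DKC1, the pseudouridine synthase dyskerin and also a part of telomerase, read 9.65, 9.72, 9.39 and 10.05 at 0 ng, 8.68, 8.71, 8.53 and 8.44 at 3 ng, and 8.24, 8.59, 8.27 and 8.48 at 5 ng. Both induced groups lay below all arrays of 0 ng and overlapped each other. DKC1 fell by 1.11 ± 0.19 at 3 ng and by 1.31 ± 0.19 at 5 ng (2.16-fold and 2.48-fold lower, limma adjusted p = 0.00019 and 1.6e-05). Its partners in the particle changed less. GAR1 fell by 0.58 and 0.63 and NOP10 by 0.38 and 0.40 at 3 and 5 ng, whereas NHP2 fell by 0.42 at 3 ng (limma adjusted p = 0.043) and missed the threshold at 5 ng with -0.39 ± 0.15 (adjusted p = 0.057).

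NHP2 read 9.26, 8.92, 8.89 and 9.43 at 0 ng, 8.83, 8.79, 8.65 and 8.54 at 3 ng, and 8.58, 8.69, 8.84 and 8.83 at 5 ng. Its call at 5 ng was gained without array 2 or 3 of 0 ng. The induced arrays overlapped each other and lay below those of 0 ng. After quantile normalization NHP2 (0.04 and -0.03) and NOP10 (0.06 and -0.05) no longer passed at either dose, and GAR1 passed at 5 ng (-0.22) and not at 3 ng (-0.11), while DKC1 kept falls of 0.66 and 0.94. NHP2 has a second cluster with a single symbol, which changed by -0.38 at 5 ng.

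All 4 snoRNP chaperone and nucleolar organizer genes fell at both doses as deposited. NOLC1, a chaperone that binds snoRNPs and treacle, read 10.32, 10.30, 10.08 and 10.63 at 0 ng, 9.40, 9.53, 9.27 and 9.22 at 3 ng, and 8.96, 9.27, 8.92 and 9.20 at 5 ng. All induced arrays lay below those of 0 ng, and the 2 induced groups overlapped. NOLC1 fell by 0.98 ± 0.19 at 3 ng and by 1.25 ± 0.19 at 5 ng (limma adjusted p = 0.00085 and 3.9e-05). NCL, the nucleolar protein nucleolin, fell by 0.70 and 0.81, DDX21, an RNA helicase of the nucleolus, by 0.75 and 0.67, and MYBBP1A, a nucleolar protein that binds MYB and p53, by 0.69 and 0.82. After quantile normalization MYBBP1A alone of the 4 did not pass at 3 ng (-0.22, limma adjusted p = 0.057).

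The small subunit processome and the later maturation of the small subunit had the most members, and all 14 fell at both doses, with medians of -0.78 at 3 ng and -0.94 at 5 ng. UTP20, a large scaffold of the processome, read 7.91, 7.92, 7.68 and 8.26 at 0 ng, 6.81, 7.09, 6.88 and 6.68 at 3 ng, and 6.56, 6.70, 6.71 and 6.73 at 5 ng. UTP15, a subunit of the complex that joins the precursor rRNA first, read 8.71, 8.53, 8.37 and 9.0 at 0 ng, 7.77, 7.88, 7.70 and 7.67 at 3 ng, and 7.33, 7.48, 7.37 and 7.81 at 5 ng. In both genes all induced arrays at 24 h lay below 0 ng, and 3 ng and 5 ng overlapped. UTP20 fell by 1.08 ± 0.17 and 1.27 ± 0.17 (limma adjusted p = 0.00011 and 8.7e-06) and UTP15 by 0.90 ± 0.20 and 1.16 ± 0.20 (0.0028 and 0.00016).

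The other processome genes fell less than UTP20 and UTP15, and those differences between genes were not tested. At 5 ng the falls were 1.06 for WDR75, 0.95 for UTP18, 0.93 for HEATR1 and 0.58 for WDR43, which act in early complexes of the processome, and 0.94 for RRP9, a protein of the U3 snoRNP. NOP14, which joins the processome in yeast, fell by 0.91 and NAT10, the acetyltransferase of rRNA, by 0.67. Genes of the later steps fell too, LTV1, which binds the maturing small subunit, by 1.09, NOB1, the nuclease that trims the end of the small subunit rRNA, by 1.02, TSR1 and BYSL, which also bind that particle, by 0.95 and 0.75, and RRP12, an export factor in yeast, by 0.56. RRP12 was the member of this group that did not pass after quantile normalization at 5 ng (-0.15, limma adjusted p = 0.11), and RRP12 and BYSL did not pass at 3 ng (-0.11 and -0.16). After centring, WDR43 and RRP12 did not pass at 5 ng (limma adjusted p = 0.064 and 0.11).

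All 6 large subunit assembly genes fell at both doses, with medians of -0.73 at 3 ng and -0.84 at 5 ng. RRS1, which in yeast helps to load ribosomal proteins and small rRNA onto the large subunit, read 8.44, 8.45, 8.22 and 8.90 at 0 ng, 7.54, 7.79, 7.54 and 7.67 at 3 ng, and 7.06, 7.51, 7.44 and 7.53 at 5 ng. The 3 groups did not overlap. RRS1 fell by 0.87 ± 0.19 at 3 ng and by 1.12 ± 0.19 at 5 ng (limma adjusted p = 0.0024 and 0.00013). BOP1, PES1 and WDR12 form the PeBoW complex, and at 5 ng they fell by 0.91, 0.61 and 0.83. NOP16, a large subunit factor in yeast, fell by 0.86 and NOP2, a methyltransferase of the large subunit rRNA, by 0.79. A second cluster of BOP1 gave -1.05 at 5 ng. PES1 was the member of this group that did not pass at 3 ng after quantile normalization (-0.11).

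The dose step, 5 ng against 3 ng at 24 h, asks whether more p53 lowered the pathway further. As deposited, 0 of the 35 genes passed in either direction, against 0.755% of all genes called lower and 1.79% called higher. An unadjusted p under 0.05 in limma was found for 2 of the 35, against 8.83% of all genes. The members' median was -0.12, against -0.01 over all genes. TCOF1 had the lowest difference, -0.50 ± 0.16 (limma adjusted p = 0.13), with 4 of 4 arrays of 5 ng below all arrays of 3 ng. POLR1A had the highest, 0.35 ± 0.16 (adjusted p = 0.49), with 4 of 4 above.

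After quantile normalization, 14 of the 35 genes were lower at 5 ng than at 3 ng and 1 was higher, against 4.42% and 5.96% of all genes, with a median of -0.21 against -0.02 over all genes. The 14 were TCOF1 (-0.54), NOLC1 (-0.37), WDR75 (-0.36), LTV1 (-0.36), UTP15 (-0.32), DKC1 (-0.28), NOB1 (-0.25), TSR1 (-0.25), BYSL (-0.24), NOP14 (-0.23), NCL (-0.22), UTP20 (-0.22), FBL (-0.21) and NOP2 (-0.18), and the 1 was POLR1A (0.26). Of these 14, 8 belong to the small subunit group. Centring each array on its median called TCOF1 lower (-0.46) and POLR1A higher (0.40), and no other of the 35, against 1.53% and 5.89% of all genes. The median SE of the 35 differences was 0.170 as deposited, 0.112 after centring and 0.0710 after quantile normalization. Quantile normalization moved the differences too, and the parts of the 2 in the count of calls were not separated.

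**Figure D4:**
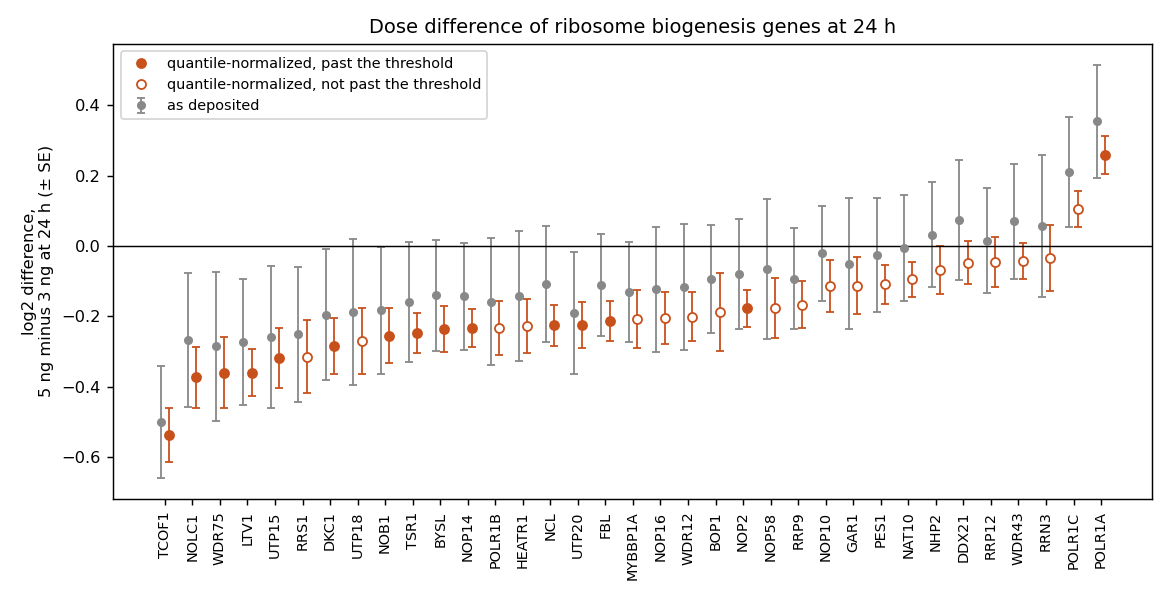
Log2 difference of 5 ng minus 3 ng at 24 h (vertical axis) for each of the 35 genes, with the SE of the model, as deposited (grey) and after quantile normalization (orange, filled where limma's adjusted p is under 0.05). As deposited 0 genes passed, and after quantile normalization 14 passed below 0 and POLR1A above 0.

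At 12 h, 5 ng did not differ from 3 ng in any of the 35 genes past the threshold as deposited, against 0% of all genes called lower and 0.0217% called higher. On these values 0 of the 35 had an unadjusted p under 0.05 in limma, against 5.88% of all genes. After quantile normalization 1 gene, POLR1A, was higher at 5 ng (0.21, limma adjusted p = 0.050, against 2.32% of all genes called higher and 0.424% called lower). On that scale 5 of the 35 had an unadjusted p under 0.05 in limma, which is near the 14.2% of all genes. With 1 array left out before that normalization, 0 of the 35 genes were higher in 7 of 8 fits. TCOF1 differed by -0.32 ± 0.16 as deposited (adjusted p = 0.82). The interaction of dose and time asks whether the dose step differed between 24 h and 12 h. It passed for 0 of the 35 genes on the deposited, quantile-normalized and centred values. Of all genes, 0% passed in either direction as deposited, and 0.0652% lower and 0.00543% higher after quantile normalization. The unadjusted p of the interaction in limma was under 0.05 for 0 of the 35 as deposited, against 2.12% of all genes. After quantile normalization it was under 0.05 for 11, against 6.05% of all genes. A dose step past the threshold at 24 h and not at 12 h is therefore not shown to differ between the times.

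The 12 h groups were compared with 0 ng at 24 h, the uninduced cells available, so that dose and time of collection differ together and cannot be told apart. At 5 ng for 12 h, 18 of the 35 genes were lower and 0 higher, against 11.5% and 3.44% of all genes, with a median of -0.47 against -0.18. The largest falls were those of TCOF1 (0.86 ± 0.16), DKC1 (0.73 ± 0.19), UTP18 (0.72 ± 0.21) and NOLC1 (0.71 ± 0.19), with limma adjusted p = 0.00091, 0.011, 0.024 and 0.016. The count was 3 when array 4 of 0 ng or array 1 of 5 ng at 12 h was left out, and 11 when array 1 of 0 ng was. Without array 4 of 0 ng or array 1 of 5 ng at 12 h the calls of DKC1, NOLC1 and UTP18 were lost, and that of UTP18 also without array 1 of 0 ng or array 3 of 5 ng at 12 h. UTP18 read 8.20, 8.70, 8.55 and 8.82 at 5 ng for 12 h, against 9.31, 9.28, 8.91 and 9.63 at 0 ng, and the groups did not overlap.

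At 3 ng for 12 h, 0 of the 35 genes passed as deposited, against 1.24% of all genes called lower and 1.57% called higher. Yet 26 of the 35 had an unadjusted p under 0.05 in limma, against 19% of all genes. The median was -0.43 against -0.04 over all genes. Without replicate 2 of 3 ng at 12 h, the brightest array of the series with a median of 5.54, the count was 27. After quantile normalization 17 genes were lower and 1, POLR1A, was higher (0.35), against 8.57% and 6.61% of all genes, and after centring 28 were lower, against 14.9%. At 5 ng for 12 h the quantile-normalized counts were 21 lower and 2 higher, POLR1A (0.56) and POLR1C (0.20), against 14.3% and 11.5% of all genes.

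A few genes were lower at the later collection of the same dose. At 3 ng, 2 of the 35 genes were lower at 24 h than at 12 h and 0 higher, against 4.36% and 0.0706% of all genes. The count of lower genes at 3 ng is near the share over all genes. TCOF1 fell by 1.19 ± 0.16 (limma adjusted p = 3.9e-05) and FBL by 0.51 ± 0.14 (adjusted p = 0.047). TCOF1 read 7.18, 7.30, 7.07 and 7.06 at 24 h, against 8.11, 8.80, 8.15 and 8.31 at 12 h, with no overlap. At 5 ng, 4 were lower at 24 h and 0 higher, against 3.55% and 0.424% of all genes. These were TCOF1 (fell by 1.37 ± 0.16, adjusted p = 3.7e-06), UTP15 (0.72 ± 0.20, 0.048), UTP20 (0.63 ± 0.17, 0.042) and FBL (0.52 ± 0.14, 0.045).

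TCOF1 read 6.64, 6.57, 6.67 and 6.73 at 5 ng for 24 h, against 7.77, 8.32, 8.01 and 8.0 at 12 h. The arrays of all 4 genes did not overlap between the times. When each of the 8 arrays compared was left out in turn, the FBL call at 3 ng was lost in 6 fits and kept without array 1 or 3 of 12 h. At 5 ng the calls of FBL and UTP20 were lost in 7 fits and kept without array 1 of 12 h, and that of UTP15 was lost in 6 and kept without array 1 of 12 h or array 4 of 24 h. TCOF1 kept its call in all 8 fits at both doses. With each array centred on its median, FBL did not pass at 3 ng (-0.25, limma adjusted p = 0.26) or at 5 ng (-0.36, adjusted p = 0.058), while TCOF1, UTP15 and UTP20 did. After quantile normalization 11 genes were lower and 1 higher at 3 ng (6.06% and 9.92% of all genes), and 21 lower and 1 higher at 5 ng (7.6% and 10.8%). The 1 gene was NOP10 in both, by 0.23 and 0.22. With 1 array left out before that normalization, 0 of the 35 genes were higher in 5 of 8 fits at 3 ng and in 6 of 8 at 5 ng. NOP10 was also the 1 gene of the 35 that was lowest at 5 ng for 12 h in deposited group means, with 9.12 ± 0.11 at 24 h against 9.01 ± 0.11 at 12 h (SD, n = 4). That deposited difference was not called.

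Other genes of ribosome production were counted from lists of their known parts, to show how far the falls reached. Of 11 further genes of RNA polymerase I transcription, 11 fell at 3 ng and 6 at 5 ng against 0 ng at 24 h, with medians of -0.78 and -0.69. Of all genes, 23% and 23.5% were called lower in these comparisons. The largest falls at 5 ng were those of TAF1A (2.03 ± 0.25), a part of the promoter selectivity factor, and of the polymerase subunits POLR1E (1.32 ± 0.17) and POLR1G (1.28 ± 0.17). Of 43 further small subunit factors, 38 and 37 fell, DDX10 most at 5 ng (1.31 ± 0.23), and of 43 further large subunit factors, 36 and 34 fell, led by MRTO4 (1.38 ± 0.18), BRIX1 (1.36 ± 0.20) and NOC3L (1.36 ± 0.22). None of these rose as deposited. After quantile normalization, where 12.5% of all genes were called lower at 3 ng and 17.2% at 5 ng, 6 and 6 of the polymerase I list fell, 20 and 28 of the small subunit list, and 23 and 29 of the large subunit list. In the same order of lists 0, 1 and 2 genes rose at 3 ng and 1, 3 and 3 at 5 ng, against 15.4% and 20.6% of all genes. UTP3 (0.71), IMP3 (0.35), NOP53 (0.44) and ZNF622 (0.48) were among those that rose at 5 ng.

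Of 13 genes of the RNA exosome, the nuclease complex that trims rRNA precursors and degrades other RNAs, 9 fell at 3 ng and 10 at 5 ng as deposited, against 23% and 23.5% of all genes, and 7 and 8 after quantile normalization, against 12.5% and 17.2%. EXOSC8, EXOSC2 and EXOSC9 fell by 2.30 ± 0.22, 1.76 ± 0.17 and 1.54 ± 0.19 at 5 ng (limma adjusted p = 7.9e-08, 7.7e-08 and 2.5e-06), so that EXOSC8 fell about as far as TCOF1. Of 58 genes of cytosolic ribosomal proteins, the protein parts of the finished ribosome, 17 fell at 3 ng and 4 at 5 ng, against 23% and 23.5% of all genes. The count is thus near that share at 3 ng and below it at 5 ng. Their medians were -0.37 and -0.26, against -0.23 and -0.24 over all genes. RPL32 had the largest fall at 5 ng (0.81 ± 0.20). After quantile normalization 0 fell and 1 rose at 3 ng, and 4 fell and 4 rose at 5 ng, with medians of -0.01 and 0.00. The medians differ between assembly factors and ribosomal proteins in these data, and that difference was not tested.

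**Figure D5:**
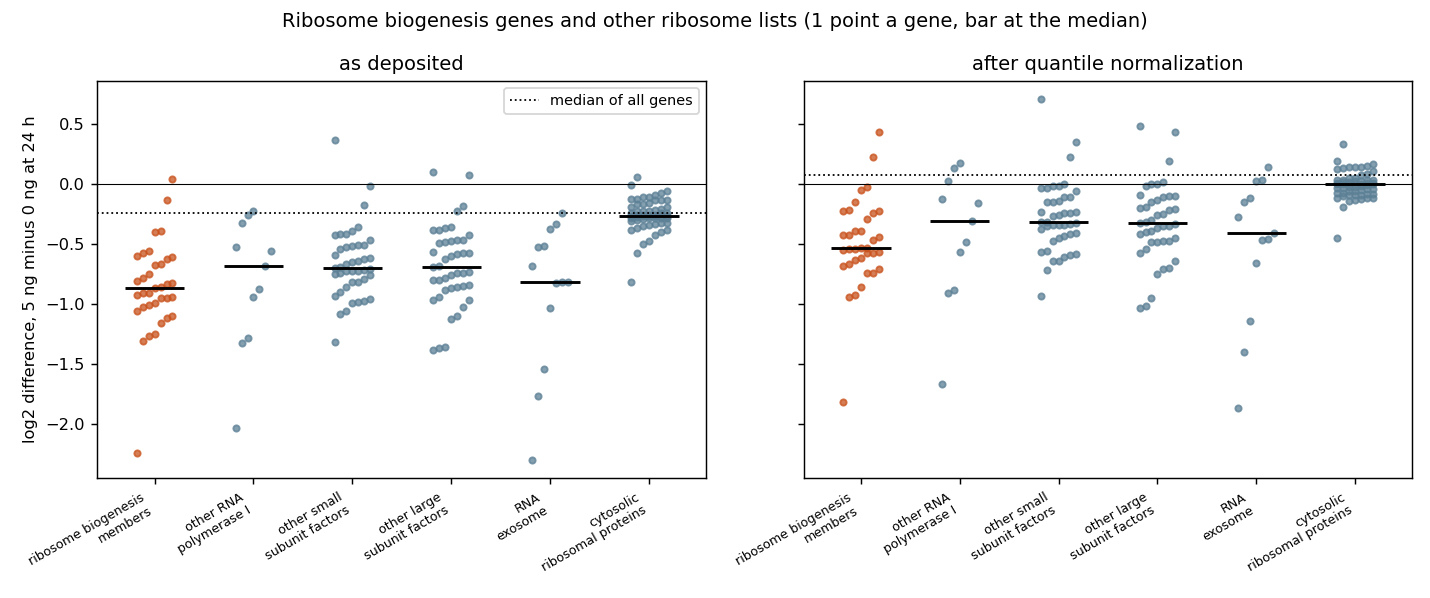
Log2 difference of 5 ng minus 0 ng at 24 h (vertical axis) of the 35 ribosome biogenesis genes and of 5 other lists, with 1 point a gene and a bar at the median, as deposited on the left and after quantile normalization on the right. The dotted line is the median of all genes, -0.24 and 0.07. The ribosomal protein genes, with a median of -0.26, lie near it as deposited, and the 35 genes, with a median of -0.86, lie below it.

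MYC, the transcription factor known to activate many genes of the pathway, read 9.76, 9.67, 9.53 and 9.96 at 0 ng, 9.32, 9.30, 9.12 and 9.18 at 3 ng, and 8.85, 9.18, 9.07 and 9.20 at 5 ng, all at 24 h. Both induced groups lay below 0 ng and overlapped each other. MYC fell by 0.50 ± 0.14 at 3 ng and by 0.66 ± 0.14 at 5 ng (limma adjusted p = 0.013 and 0.0013). After quantile normalization the change was -0.05 at 3 ng, which did not pass, and a fall of 0.30 at 5 ng. MGA, which binds MAX and opposes MYC, fell by 0.81 and 1.15, MYCL by 0.53 at 5 ng, and MXD4, a repressor that pairs with MAX, rose by 0.43 and 0.56 (limma adjusted p = 0.021 and 0.0025). In all, 2 of 11 genes of the MYC network fell and 1 rose at 3 ng, against 23% and 1.5% of all genes, and 3 fell and 1 rose at 5 ng, against 23.5% and 4.52%. The falls are near the share over all genes, and the medians, -0.23 at both doses, stood beside -0.23 and -0.24 over all genes. After quantile normalization 1 fell and 4 rose at 3 ng, against 12.5% and 15.4% of all genes. At 5 ng 2 fell and 5 rose on that scale, against 17.2% and 20.6%. These falls too are near the shares over all genes, and the rises are above them.

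At 5 ng for 24 h against 0 ng, the 5 genes of the 29 with an E-box in any of their windows had a median change of -0.67 (from -1.27 to -0.40). The 24 without one had -0.85 (from -1.31 to 0.04). That median of the 5 is the value of DDX21, whose E-box lies only in the window within the gene. Differences between genes with and without a motif were not tested. The 15 with an ETS core had -0.86 and the 14 without one -0.82. UTP20, with an E-box, and DKC1, with neither motif, were among the largest falls. POLR1A and POLR1C, with 2 and 3 ETS cores, passed at neither dose as deposited. The other genes with 2 ETS cores in 1 window, TSR1, UTP18, NOP16 and MYBBP1A, changed by -0.95, -0.9475, -0.86 and -0.825 at 5 ng. Some cores of POLR1C and NOP16 overlap.

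Among genes that link the nucleolus to p53, NPM1, the nucleolar chaperone nucleophosmin, fell by 0.49 ± 0.15 at 3 ng and by 0.48 ± 0.15 at 5 ng (limma adjusted p = 0.018 and 0.017), and CDKN2A, whose ARF product binds MDM2 in the nucleolus, by 0.80 and 0.93. RPL5 and RPL11, the ribosomal proteins that bind MDM2 when assembly stalls, changed by -0.30 and -0.31 at 3 ng and by -0.24 and -0.22 at 5 ng and did not pass (limma adjusted p from 0.16 to 0.34). MDM2, the ligase that degrades p53 and a p53 target, changed by 0.18 ± 0.15 at 3 ng (adjusted p = 0.44) and rose by 0.47 ± 0.15 at 5 ng (adjusted p = 0.017). All values in this paragraph are as deposited, where the median change of all genes was itself negative at both doses. The quantile-normalized changes of these genes are not given, so their calls may depend on array brightness.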

How the data were processed

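Per the file headers and values, the deposited table holds log2 signals, 1 for each transcript cluster and array. The submitters' processing notes list GCOS, GCRMA, Affymetrix Power Tools and limma with no version or role, and how the arrays were scaled is not given there. Of 33297 clusters, 19460 had 1 gene symbol in the platform annotation, 1754 had several and 12083 were not listed. The brightest cluster stood for each gene, and no gene was filtered out.

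In limma 3.58.1 (R 4.3.3), a model with a mean per group was fitted across the 20 arrays (15 residual degrees of freedom, eBayes, Benjamini-Hochberg over 18417 genes, threshold 0.05), after tests on simulated data. Quantile normalization used all clusters. Replicate numbers were not used as pairs in the main fit. Of 40 same-numbered pairs, 13 had deviations correlated above 0.1, and the correlations ran from -0.18 to 0.50. For 10 of 20 arrays the best correlated array of another group bore the same number, so pairing is not settled. A replicate block was therefore kept among the alternatives. Members, lists and the rule for named genes were chosen with earlier results of these data known. By that rule every member is accounted for, arrays are listed for the largest changes of each comparison and for members not called, and up to 3 genes a list and direction are named. UTP3, IMP3, NOP53, ZNF622 and the proliferation markers beyond MKI67 were added after their values were seen. Promoter sequences came from RefSeq tables on GRCh38.p14.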

Additional observations from a re-analysis of the deposited data

Results flagged for a closer look

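In 9 of 180 sets of 4 arrays (each of the 35 genes, and their mean, in each of the 5 groups, deposited values), 1 array stood apart from the other 3 by more than Dixon's 95% critical value. That is 5%, and chance flags about 1 in 20. Replicate 1 of 5 ng at 12 h, whose array median was 4.70, was the low array in 6 of them. It read 7.95 for UTP15 (others 8.28 to 8.34), 7.07 for UTP20 (7.36 to 7.40), 8.92 for LTV1 (9.29 to 9.34), 8.53 for NAT10 (8.81 to 8.85), 8.34 for BOP1 (8.71 to 8.78) and 8.24 for WDR12 (8.60 to 8.65). Replicate 4 of 5 ng at 24 h was the high array for NOB1, with 8.19 (others 7.88 to 7.89), and for LTV1, with 8.92 (8.68 to 8.69). Replicate 4 of 0 ng was the high array for TCOF1, with 9.21 (8.73 to 8.81), and its array median, 5.28, was the highest of its group.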

How the results depend on the processing

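The alternatives were quantile normalization, centring of each array, leaving out the dimmest 30% of genes (12893 then remain), averaging the clusters of each gene, only the groups compared, trend and robust eBayes, a replicate block, and each array left out. Averaging clusters changed no count by over 1.5 times. The replicate block moved 1 count by that much, members lower at 3 ng for 12 h against 0 ng, which numbered 4 with the block and 0 without.

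After quantile normalization members lower numbered 14 for 5 ng against 3 ng at 24 h, 17 for 3 ng at 12 h against 0 ng, and 11 and 21 for 24 h against 12 h at 3 and 5 ng. Members higher numbered 1, 2 and 1 for 3 ng against 0 ng, 5 ng against 0 ng and 5 ng against 3 ng at 24 h, 1 for 5 ng against 3 ng at 12 h, 1 and 2 for 3 and 5 ng at 12 h against 0 ng, and 1 and 1 for 24 h against 12 h. Centring gave 28 lower for 3 ng at 12 h, 7 lower for 24 h against 12 h at 5 ng, 1 lower and 1 higher for the dose step at 24 h, and 1 higher for 5 ng at 24 h and at 12 h against 0 ng. Without the dimmest genes the counts were 6 lower for 3 ng at 12 h and 4 for 24 h against 12 h at 3 ng. With trend and robust eBayes they were 9, 6, and 9 at 5 ng. With only the groups compared they were 1 for the dose step at 24 h, 10 for 5 ng at 12 h and 1 for 24 h against 12 h at 3 ng.

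POLR1A (0.17) and POLR1C (0.11) at 3 ng and POLR1C at 5 ng (0.22, and 0.17 after centring) reversed sign under scaling, and POLR1A at 5 ng ran from -0.054 to 0.17 when single arrays were left out, below 0 without replicate 2 or 3 of 0 ng.

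Leaving out 1 array, members lower ranged from 26 to 33 for 3 ng and 28 to 33 for 5 ng against 0 ng at 24 h, 0 to 27 for 3 ng and 3 to 22 for 5 ng at 12 h, and 1 to 8 for 3 ng and 1 to 4 for 5 ng between the times. At 3 ng between the times the count was 5 and 8 without replicate 1 or 3 of 12 h and 1 without replicate 2 or 4 of 12 h or 1, 3 or 4 of 24 h. At 5 ng it was 1 without replicate 2, 3 or 4 of 12 h or 1, 2 or 3 of 24 h, and 2 without replicate 4 of 24 h. After quantile normalization, an alternative chosen after seeing the data when combined with leaving out arrays, the ranges in the same order were 21 to 26, 28 to 30, 9 to 17, 18 to 22, 5 to 10 and 17 to 21, and 5 to 13 for the dose step at 24 h. In those fits members higher ranged from 0 to 1 for 3 ng against 0 ng at 24 h. The range was 0 to 1 for 5 ng against 3 ng at 12 h, and 0 to 2 and 0 to 1 for 24 h against 12 h at 3 and 5 ng. Array brightness limits the deposited comparisons.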
